A study of Mus musculus with 128 samples.

Results

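The comparison described here is that of a high-fat with a low-fat diet in the reproductive white adipose tissue of SM/J mice at 30 weeks of age, in 16 of the 128 libraries of the study. Its members are 8 libraries of mice on the high-fat diet and 8 of mice on the low-fat diet, taken from the deposited white fat tables by strain, diet and age. The study sequenced total RNA, after ribosomal RNA removal, from brown and white fat of SM/J and LG/J mice, both inbred strains, on both diets at 20 and 30 weeks. Each diet group here holds 4 females and 4 males, 1 library per mouse number, and the labels name no allele or treatment other than diet. The labels give neither the composition of the diets nor the time at which they began. The depot is named only as reproductive, so it lies beside the ovary and uterus in females and beside the epididymis in males. The SM/J strain is known for obesity on a high-fat diet, and the study's title concerns the glycaemia of obese SM/J mice.

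White adipocytes store fatty acids as triglyceride in a single large droplet and release them between meals, and they secrete hormones such as leptin and adiponectin. In obese mice the depot is known to gain macrophages, which surround dying adipocytes, and to gain collagen, while adipocyte genes for insulin-driven glucose uptake and lipid synthesis are known to fall. A layer of mesothelial cells covers the visceral depots.

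A gene's level is given as CPM (a gene's share of its library, scaled to 1000000), computed from the deposited normalised counts after the 16 libraries were rescaled together, and differences are on the scale of log2(CPM + 0.25), high-fat minus low-fat. Adjusted p-values are from limma's trended moderated test with sex as covariate and Benjamini-Hochberg adjustment over all 13715 genes present in both tables, and a gene is said to have risen, fallen or been called where that value was under 0.05. The deposited library totals were 18399219 to 20803551 normalised counts. The depth in reads is unknown. The authors scaled and filtered the 2 diets in separate tables, so a difference between diets and a difference between tables cannot be told apart beyond 1 factor per library. Nothing in the labels ties a mouse to a litter or cage.

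One library stood apart. On the first principal component, which held 36.2% of the variance, low-fat male 552 lay at -38.5, the other 7 low-fat libraries at 0.643 to 58.2 and the high-fat libraries at -25.6 to -7.66. It had the lowest adiponectin level of all 16 libraries (1025 CPM) and the highest summed level of 21 macrophage markers (7226 CPM, against 1371 to 4537 CPM in the other low-fat libraries). Counts without it are given beside each gene list whose calls in a direction they moved by over 1.5 times. Over all genes 14.3% rose and 13.3% fell without it, the shares beside which those counts stand. Adipocyte genes were abundant in every library: Adipoq stood at 1140.2 to 1912 CPM on the high-fat and 1025 to 4439.9 CPM on the low-fat diet. None of 15 epididymis and testis markers was measured. Of 16 markers of ovary, oviduct and uterus 5 were measured. They summed to 115 to 206 CPM in females and 103 to 209 CPM in males, so the sum gives no measure of such tissue.

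On the high-fat diet 701 genes rose (5.11% of those tested) and 588 fell (4.29%). Among those that rose were genes of cholesterol synthesis and the classical complement pathway, a minority of the macrophage markers, and Lox, which cross-links collagen. Among those that fell were mesothelial markers, the adiponectin gene but not the leptin gene, the insulin-regulated glucose transporter and subunits of the mitochondrial respiratory chain. Without low-fat male 552 the counts were 1966 (14.3%) and 1826 (13.3%), and all 1289 genes called with 16 libraries were among them in the same direction. The count fell to 616 to 832 when 1 of 7 other libraries was left out, namely high-fat females 729, 740 and 786, high-fat male 700, low-fat females 489 and 490 and low-fat male 627. The levels of the diets did not overlap for 96 genes (0.7%), of which 95 were called. In bulk tissue fewer cells of a type and less RNA per cell cannot be told apart.

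**Figure D1:**
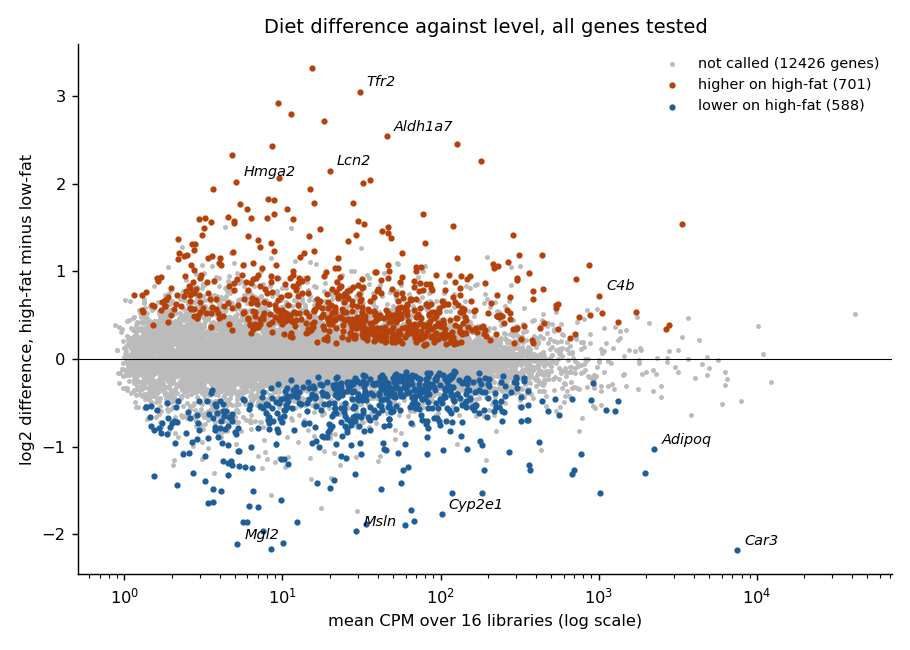
Each point is 1 of 13715 genes, with its mean CPM over the 16 libraries on a log axis and its log2 difference, high-fat minus low-fat, on the vertical axis. The 701 genes that rose are orange, the 588 that fell blue and the rest grey, and Car3 is both among the most abundant genes and the largest fall.

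The 15 largest named rises ranged from 1.82 to 3.05 on the log2 scale. Tfr2, which encodes transferrin receptor 2 and is best known as a liver sensor of iron, lies on chromosome 5 (chr5:137569840-137587481 in mm10, as are the other positions of genes). Its lowest, median and highest levels were 35.4, 50.3 and 83.3 CPM on the high-fat and 1.44, 6.26 and 17.7 CPM on the low-fat diet, a difference of 3.05 ± 0.30 (SE, adjusted p = 3.3e-05). No low-fat library reached the lowest high-fat one, and low-fat males, at 1.44 to 4.60 CPM, lay below low-fat females, at 7.91 to 17.7 CPM. Aldh1a7, a cytosolic aldehyde dehydrogenase close in sequence to Aldh1a1, so that reads may have been split between them, stood at 51.5, 68.5 and 122 CPM and 5.62, 12.1 and 25.3 CPM. Its difference of 2.54 ± 0.16 (SE) had the smallest adjusted p among the named genes (2.9e-07), and again the diets did not overlap.

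Genes of the extracellular matrix and the cell surface were among these rises. Ncan, the chondroitin sulfate proteoglycan neurocan, known mostly from the brain (chr8:70093085-70120873), rose from 33.3, 65.4 and 104 CPM to 192, 314 and 358 CPM (lowest, median and highest), a difference of 2.26 ± 0.21 (SE, adjusted p = 2.25e-05). Podnl1, a small leucine-rich proteoglycan, rose by 2.43 ± 0.23 (SE), with 7.86 to 23.1 CPM against 1.18 to 3.25 CPM. Neither gene had a low-fat library within the high-fat range. Itgad, the integrin alpha D chain of macrophages, stood at 135, 196 and 255 CPM against 4.19, 47.7 and 141 CPM (2.46 ± 0.59 SE, adjusted p = 0.0191), and here the highest low-fat library overlapped the high-fat group. Nrcam, a neuronal cell adhesion molecule, rose by 2.01.

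Several of the rises encode enzymes, transporters and secreted proteins. Ppp1r3a, the subunit that targets protein phosphatase 1 to glycogen, stood at 10.1 to 42.5 CPM on the high-fat and 0.499 to 4.67 CPM on the low-fat diet, with no overlap. Slc5a7, the choline transporter, and Slc16a12, a monocarboxylate transporter family member that carries creatine, rose by 2.72 and 2.05, also without overlap. Lcn2, lipocalin 2, a secreted protein that binds bacterial iron carriers and is made by adipocytes and neutrophils, rose by 2.15 ± 0.42 (SE, adjusted p = 0.00580). Its lowest, median and highest levels were 12.2, 27.6 and 92.03 CPM against 1.20, 6.32 and 16.6 CPM, and the ranges overlapped. Cfi, complement factor I, rose by 2.06 without overlap. Hmga2, a chromatin protein of proliferating and fetal cells, rose by 2.02 ± 0.53 (SE) with all libraries (adjusted p = 0.0273) although low-fat male 552 reached 16.4 CPM, above the highest high-fat library at 8.04 CPM. Tmem132b, Myh15 and Vxn rose by 2.92, 1.94 and 1.82.

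Car3, carbonic anhydrase 3, an abundant cytosolic protein of adipocytes known to be low in obese mice (chr3:14863512-14872523), was the largest fall. Its lowest, median and highest levels were 1418, 2120.2 and 4314 CPM on the high-fat and 2806, 12500.0 and 17960.0 CPM on the low-fat diet, and the difference was -2.18 ± 0.37 (SE, adjusted p = 0.00238). The only overlap came from low-fat male 552, and without it the adjusted p was 1.71e-05. Hsd11b1, which regenerates active glucocorticoid within cells, stood at 19.2, 24.96 and 32.5 CPM against 22.05, 106 and 224 CPM (-1.84 ± 0.32 SE, adjusted p = 0.00280). Cyp2e1, a cytochrome P450 that oxidises small molecules such as ethanol, stood at 20.4, 41.3 and 69.5 CPM against 59.8, 157 and 296 CPM (-1.77 ± 0.35 SE). Both genes were lower on the high-fat diet in the middle of the groups but overlapped at their edges. Aqp11, an intracellular aquaglyceroporin, and Orm3, an orosomucoid gene with close paralogs Orm1 and Orm2, fell by 1.86 and 1.96 on the log2 scale.

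Mgl2 and Cd209 genes, which encode lectins of macrophages and dendritic cells, were among the falls, while the lectin genes Mrc1 and Clec9a rose. Mgl2, also called CD301b, a galactose-binding lectin of alternatively activated macrophages and dermal dendritic cells, stood at 0.850, 1.63 and 2.45 CPM on the high-fat and 1.78, 8.30 and 14.7 CPM on the low-fat diet, a difference of -2.11 ± 0.29 (SE, adjusted p = 0.000484). Cd209b, a relative of the pathogen receptor DC-SIGN, fell by 2.16 with no overlap, at 1.31 to 5.38 CPM against 6.48 to 24.04 CPM. Cd209d and Cd209a fell by 1.86 and 1.39. The Cd209 genes are related in sequence and lie together on chromosome 8, and how reads were divided among them is not known.

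**Figure D2:**
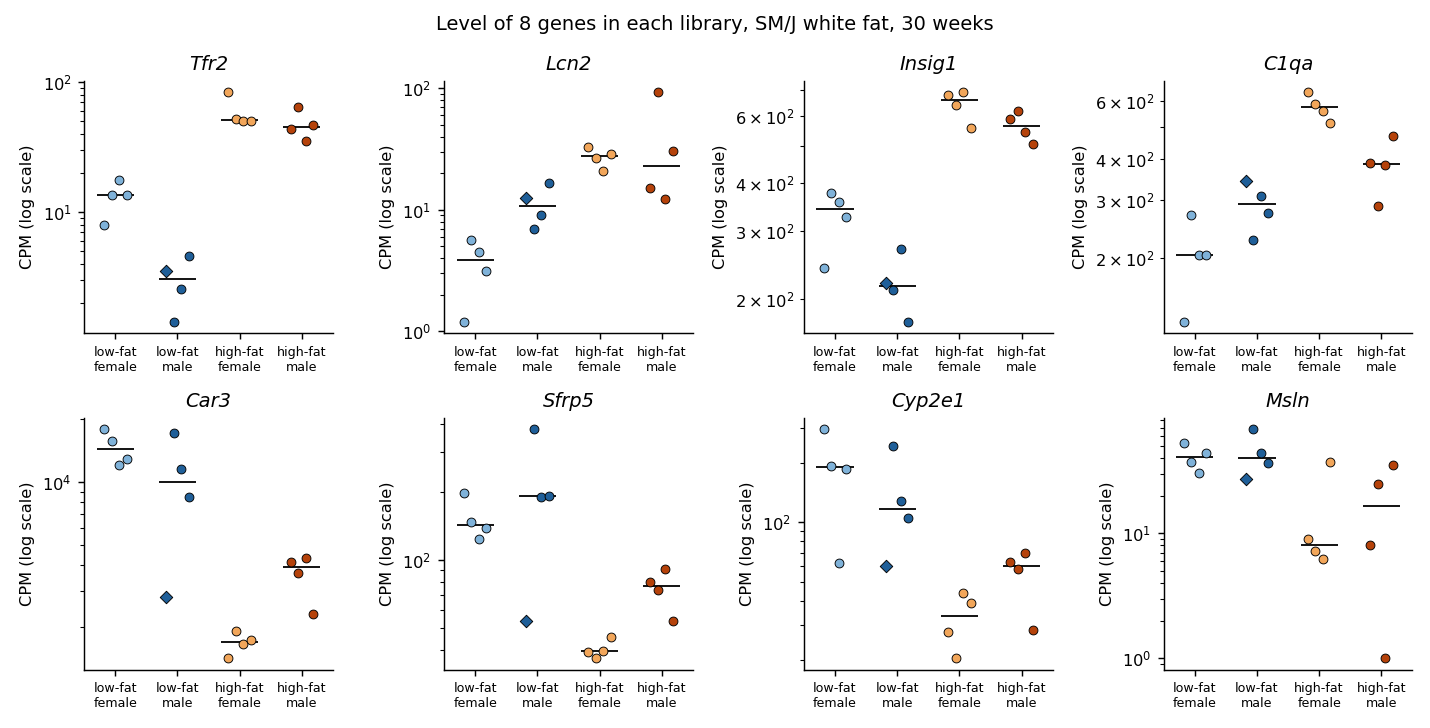
CPM on a log axis in each of the 16 libraries for 8 genes, in low-fat females and males and high-fat females and males (4 points each, black bar the median, diamond low-fat male 552). For Tfr2 and Insig1 all high-fat points lie above all low-fat points, and for Car3 and Sfrp5 the diamond lies within or near the high-fat range.

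Of 16 measured genes of cholesterol synthesis and uptake 9 rose and 1 fell, with a median difference of 0.45 against 0.01 over all genes. Insig1, whose protein holds the sterol sensor in the endoplasmic reticulum and which is itself a target of the sterol-regulated factor SREBP, stood at 507, 604 and 691 CPM on the high-fat and 174, 255 and 377 CPM on the low-fat diet. The diets did not overlap, and the difference was 1.19 ± 0.11 (SE, adjusted p = 2.25e-05). Lss, which closes the sterol ring as lanosterol synthase, stood at 114 to 169 CPM against 51.1 to 108 CPM, without overlap (0.79 ± 0.10 SE, adjusted p = 0.000295). Fdps, Mvd and Idi1 of the isoprenoid steps rose by 0.62, 0.74 and 0.42, Hmgcs1 of the first step by 0.47, and Cyp51, Msmo1 and Dhcr7 of the later sterol steps by 0.56, 0.51 and 0.77. Fdft1, squalene synthase, was the exception and fell by 0.53 (adjusted p = 0.0215).

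The promoters of genes that rose together were searched on both strands for the sterol element TCACNCCAC and the E-box CACGTG, in windows of 250 bases before to 50 after the RefSeq start. Of the 9 cholesterol genes that rose, 8 had a window. The sterol element was found in 1 of them (12.5%), Hmgcs1, against 1.4% of 10231 genes with a window, and the E-box in 2 (25.0%), Insig1 and Dhcr7, against 11.4%. The 250 bases before the start are shown for the largest riser of the list and for the gene with the sterol element, in lower case with the motif in capitals, from RefSeq on GRCm38.p6, plus strand, at chr5:28071162-28071411 for Insig1 and chr13:119690101-119690350 for Hmgcs1.
Insig1: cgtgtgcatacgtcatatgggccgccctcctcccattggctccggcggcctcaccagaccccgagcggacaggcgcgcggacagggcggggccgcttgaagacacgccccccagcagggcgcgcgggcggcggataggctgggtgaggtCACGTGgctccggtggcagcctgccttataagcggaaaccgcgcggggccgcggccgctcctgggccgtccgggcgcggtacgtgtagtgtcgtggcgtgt
Hmgcs1: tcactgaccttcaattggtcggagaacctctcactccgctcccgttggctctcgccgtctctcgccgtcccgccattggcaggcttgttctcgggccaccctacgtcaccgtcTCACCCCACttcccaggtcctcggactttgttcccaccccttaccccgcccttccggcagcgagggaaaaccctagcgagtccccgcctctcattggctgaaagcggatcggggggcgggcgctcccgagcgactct
A match describes the letters only. The share of genes holding the sterol element was 1.71% among all genes that rose and 0.917% among those that fell. The motifs of C/EBP (TTGCGCAA), NF-kB (GGACTTTCC) and PU.1 (GAGGAAGT) were in none of the 8 cholesterol windows, and in 0.323%, 0.518% and 3.85% of all genes with a window.

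Of 22 measured genes of fatty acid and triglyceride synthesis 1, Scd2, rose and 1, Thrsp, fell, which is near the shares over all genes (5.11% and 4.29%), and the median was -0.19. Without 552, 1 rose and 6 fell. The difference from the cholesterol list was not tested. Scd2, a stearoyl-CoA desaturase with close paralog Scd1, stood at 1019.7 to 1439.6 CPM against 318 to 897 CPM without overlap (1.07 ± 0.16 SE, adjusted p = 0.00103). Scd1, the main desaturase of adipocytes, stood at 37083, 44873 and 54302 CPM against 6285, 46609 and 68800.0 CPM and was not called (0.52, adjusted p = 0.441). Thrsp, a lipogenic nuclear protein, fell by 1.31 (adjusted p = 0.0153).

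Fasn, fatty acid synthase, was not called (-0.51, adjusted p = 0.263) and split by sex on the low-fat diet. The 4 low-fat females stood at 14518, 11249, 10014 and 9161 CPM and the 4 low-fat males at 2266, 5541, 4097 and 3189 CPM, while high-fat females and males stood at 3101 to 4615 CPM and 3434 to 5861 CPM. All low-fat females were above every other library. The diet difference was -1.46 in females and 0.40 in males, and the diet-by-sex test did not call it (-1.85 ± 0.38 SE, adjusted p = 0.0795, or 0.105 without 552).

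Of the secreted adipocyte proteins, 2 of 16 rose and 5 fell. Adipoq, which encodes the insulin-sensitising hormone adiponectin (chr16:23146536-23158028), stood at 1140.2, 1272 and 1912 CPM on the high-fat and 1025, 3107 and 4439.9 CPM on the low-fat diet (-1.03 ± 0.25 SE, adjusted p = 0.0187). The 552 library was the lowest of all, and without it the adjusted p was 6.92e-05. Sfrp5, a secreted inhibitor of Wnt signals in adipocytes, fell by 1.53 from a median of 169 to 49.5 CPM (adjusted p = 0.00446). Cfd, the complement protease adipsin, and Agt, angiotensinogen, fell by 1.53 and 1.47, and Vegfa, the endothelial growth factor, by 0.72. Fst, follistatin, rose by 0.61. Lep, the leptin gene, which tracks fat mass, stood at 3320.1, 4625 and 5906 CPM against 2384, 3689.6 and 6395 CPM and was not called (0.21 ± 0.19 SE, adjusted p = 0.463).

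Among genes of adipocyte identity and the lipid droplet 2 of 20 fell and none rose, and without 552, 10 fell and 1 rose. Adrb3, the beta-3 adrenergic receptor that drives lipolysis, fell from a median of 468 to 168 CPM (-1.26 ± 0.34 SE, adjusted p = 0.0301), and Gpd1, which makes glycerol 3-phosphate, by 0.58. Pparg, the master regulator of adipocytes, and Plin1, the droplet coat protein, differed by 0.02 and -0.31 and were not called, though Plin1 was without 552 (adjusted p = 0.0168). Of the 13 measured white adipocyte expansion genes 3 fell, namely Sfrp5, Nnat (-1.08), an imprinted proteolipid, and Slc7a10 (-0.55), a serine transporter of adipocytes. Without 552, 7 of the 13 fell. Mest, an imprinted gene that marks adipocyte growth, stood at 282 to 457 CPM within the low-fat range of 213 to 1008 CPM and was not called.

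Genes of glucose uptake and glycolysis fell in 5 of 16 cases and rose in none, with a median of -0.30. Slc2a4, the insulin-regulated glucose transporter GLUT4 (chr11:69942539-69948188), stood at 73.2, 89.2 and 107 CPM against 58.1, 183 and 285 CPM (-0.88 ± 0.23 SE, adjusted p = 0.0273). Pck1, which makes glycerol for triglyceride in adipocytes, stood at 692, 1058 and 1294 CPM against 649, 2414 and 5513 CPM (-1.30 ± 0.32 SE). Tkt of the pentose phosphate pathway fell by 1.27, Pdhb of pyruvate dehydrogenase by 0.52 and Hk2, hexokinase 2, by 0.48. Of 18 insulin signalling genes the receptor substrates Irs1 and Irs2 fell by 0.59 and 0.68, while Gsk3b, Trib3 and Socs3, the last a feedback inhibitor of cytokine and insulin receptors, rose by 0.21, 0.42 and 0.51. Without 552, 10 of the glucose and 5 of the insulin signalling genes fell.

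Mitochondrial genes of the respiratory chain and citrate cycle fell in 6 of 26 cases, none rose, and all 26 differences were negative, with a median of -0.39. Those that fell were the complex I subunits Ndufv1 (-0.55), Ndufb8 (-0.62) and Ndufa9 (-0.40), Sdhc of complex II (-0.37), Cox4i1 of complex IV (-0.52) and the citrate cycle enzyme Ogdh (-0.44). Ndufv1 stood at 145 to 208 CPM on the high-fat and 156 to 363 CPM on the low-fat diet. The list depended on 1 library: without 552, 24 of 26 fell. In females 25 fell, where 13.4% of all genes did, and in males 0, where 0.0365% did, with medians of -0.61 and -0.18. The diet-by-sex test called none of them with 16 libraries. Of 20 genes of branched-chain amino acid breakdown 1, Bcat2, fell (-0.38), and without 552, 15 fell. Of 19 fatty acid oxidation genes none was called, and without 552, 3 fell, where 13.3% of all genes did. Ucp1, the uncoupling protein of brown adipocytes, ranged from 3.75 to 339 CPM on the low-fat diet alone and was not called (-0.65, adjusted p = 0.522).

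**Figure D3:**
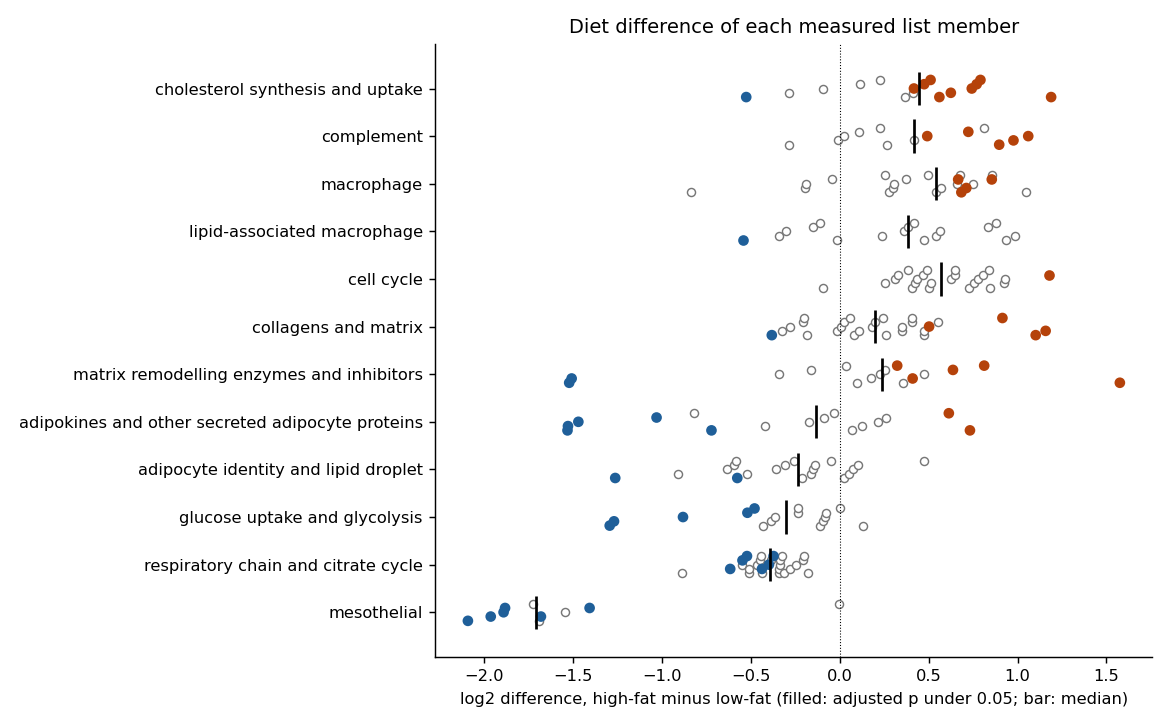
Each point is a measured member of 1 of 12 gene lists, placed by its log2 difference, high-fat minus low-fat, filled orange where it rose, filled blue where it fell and open where it was not called, and the bar is the list's median. The cholesterol list has 9 orange and 1 blue point, the respiratory chain points all lie below 0, and 9 of the 10 mesothelial points lie below -1.

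Of 13 measured genes of the complement list 5 were called, all upward, with a median of 0.42. C1qa, C1qb, C1qc and C4b of the classical pathway were among those 5. The complement protease gene Cfd, which fell, is counted with the secreted adipocyte proteins and not in this list. C1qa, C1qb and C1qc, whose products form the C1q recognition protein made by macrophages, differed by 0.98, 1.06 and 0.90. C1qa stood at 288, 491 and 636 CPM on the high-fat and 128, 248 and 343 CPM on the low-fat diet, with overlapping ranges (adjusted p = 0.00687). C4b, the next component and a gene of fibroblasts and adipocytes, whose near-copy C4a may share its reads, stood at 907 to 1551 CPM against 539 to 929 CPM (0.72 ± 0.11 SE, adjusted p = 0.000874). Without 552, 9 of the 13 rose. C3, the central component, differed by -0.01 and was not called.

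Of 21 macrophage markers 4 rose and none fell, with a median of 0.54. Among them were Mrc1 (0.68) and Folr2 (0.67), known from tissue-resident macrophages, and Cd14 (0.71), the endotoxin co-receptor. Mrc1 stood at 362, 506 and 553 CPM against 198, 290.0 and 423 CPM (adjusted p = 0.0101). Adgre1, which encodes the F4/80 antigen, stood at 244, 339.8 and 454 CPM against 52.7, 132 and 642 CPM and was not called with all libraries (1.05 ± 0.35 SE, adjusted p = 0.0707), but was without 552 (adjusted p = 0.00389). The summed level of the 21 markers was 3799.7 to 4641 CPM in high-fat females, 3029 to 3863 CPM in high-fat males, 1371 to 2289.9 CPM in low-fat females and 2417 to 4537 CPM in low-fat males other than 552. Low-fat females thus lay below all high-fat libraries, and not all low-fat males did. Without 552, 11 markers rose and 1 fell. The part of this marker level in the differences of other genes was not tested.

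Markers of lipid-associated macrophages, which take up lipid around dying adipocytes, gave 0 rises and 1 fall, Acp5 (-0.55), among 17. Trem2, the lipid receptor that defines them, stood at 124, 169 and 209 CPM against 19.7, 72.8 and 345 CPM (0.84 ± 0.37 SE, adjusted p = 0.153), its highest value being that of 552. Without that library 7 of the 17 rose, Trem2 among them (adjusted p = 0.0259). Itgax, the CD11c integrin of inflammatory adipose macrophages, differed by 0.31 and was not called either way. Of 21 lysosome genes 2 rose, among them Npc2 (0.53), which carries cholesterol out of lysosomes. Of 18 measured cytokine genes only the stromal chemokine Cxcl12 rose (0.37). Without 552, 10 and 4 genes of these lists, in that order, rose. The cytokine list holds 25 genes, and members missing from either table could not be tested. Among these, Ccl3, Ccl4 and Il10 were kept in the high-fat table only, with means of 37.7, 22.4 and 21.9 normalised counts. Ccl2, the monocyte attractant, stood at 15.7 to 34.7 CPM against 2.45 to 60.2 CPM and was not called.

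Among other leukocyte markers S100a8, a calcium-binding protein of neutrophils and monocytes, rose by 1.72 ± 0.38 (SE), at 7.10 to 21.3 CPM against 0.825 to 10.01 CPM (adjusted p = 0.0129). Of 11 dendritic cell markers Clec9a of cross-presenting cells rose (0.39), while Cd209a, Siglech of plasmacytoid cells (-1.05) and Dpp4 (-0.75), which fibroblast progenitors also express, fell. Without 552, 4 of them rose and 3 fell, where 14.3% and 13.3% of all genes did. Cd86, a costimulatory molecule, was the called gene among 10 of antigen presentation and rose without overlap, at 12.95 to 26.2 CPM against 5.32 to 10.9 CPM (0.89 ± 0.15 SE). None of 8 measured T and NK cell or 7 measured B and plasma cell markers was called. These lists hold 16 and 12 genes, and members missing from either table could not be tested. Trac of T cells and Ms4a1 of B cells were kept in the high-fat table only, at 100 to 181 and 2.99 to 210 normalised counts. Of 24 cell cycle genes Cdkn2a, a brake on division that marks senescent cells, rose (1.18 ± 0.24 SE). The median of that list was 0.57, Mki67 differed by 0.84 (adjusted p = 0.104, or 0.0157 without 552), and without 552, 18 of the 24 rose.

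Collagens and their partners gave 4 rises and 1 fall among 27 genes. Lox, the lysyl oxidase that cross-links collagen, stood at 154, 165 and 254 CPM on the high-fat and 63.9, 74.5 and 109.5 CPM on the low-fat diet with no overlap (1.16 ± 0.12 SE, adjusted p = 3.69e-05). Lum, a collagen-binding proteoglycan, Postn, periostin, and Col5a2 rose by 1.10, 0.91 and 0.50, and Eln, elastin, fell by 0.38. The fibrillar Col1a1 and the adipose Col6a3 differed by 0.35 and 0.40 and were not called. Without 552, 9 genes of the list rose and 1 fell. Among 16 matrix enzymes and inhibitors, Mmp14, its substrate Mmp2 and Mmp3 rose (0.81, 0.64 and 1.58), as did Adamts2 and Plat (0.41 and 0.32). Mmp9, gelatinase B, stood at 1.49 to 2.77 CPM below every low-fat library at 3.52 to 12.8 CPM (-1.51 ± 0.22 SE, adjusted p = 0.000755), and Timp4, an inhibitor abundant in fat, fell by 1.52. Of 15 preadipocyte and fibroblast markers 4 rose, namely Pdgfra, Dpt, Fap and Ly6a (0.52, 0.63, 0.65 and 0.45), and 1, Dpp4, fell, with a median of 0.27. Without 552, 7 rose and 2 fell. Their summed level, in which abundant genes weigh most, went the other way, at 6748 to 11507 CPM on the high-fat and 7980.4 to 14612 CPM on the low-fat diet, with medians of 7698 and 10399 CPM, and 5 high-fat libraries lay below all low-fat ones.

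Mesothelial markers fell in 6 of 10 cases, with a median of -1.71. Msln, mesothelin, stood at 1.000, 8.53 and 37.02 CPM on the high-fat and 27.4, 40.5 and 68.02 CPM on the low-fat diet (-1.96 ± 0.55 SE, adjusted p = 0.0347). The uroplakins Upk1b and Upk3b fell by 2.09 and 1.89, the keratin Krt19 by 1.88, the transcription factor Bnc1 by 1.68 and Lrrn4 by 1.41. The levels varied widely on the high-fat diet: the summed level of the 10 markers was 28.2 to 321 CPM, against 161 to 517 CPM, so that 3 high-fat libraries lay within the low-fat range and 5 below it. Wt1, which fibroblasts of visceral fat also express, differed by -0.00408 and was not called. Pkhd1l1 fell with them (-1.73). Acta2, smooth muscle actin, and Acta1, its skeletal muscle relative, fell by 1.20 and 1.42, and the 2 measured skeletal muscle markers summed to 16.9 to 41.05 CPM against 25.7 to 257 CPM. How much of these falls goes with the cells taken at dissection was not tested.

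**Figure D4:**
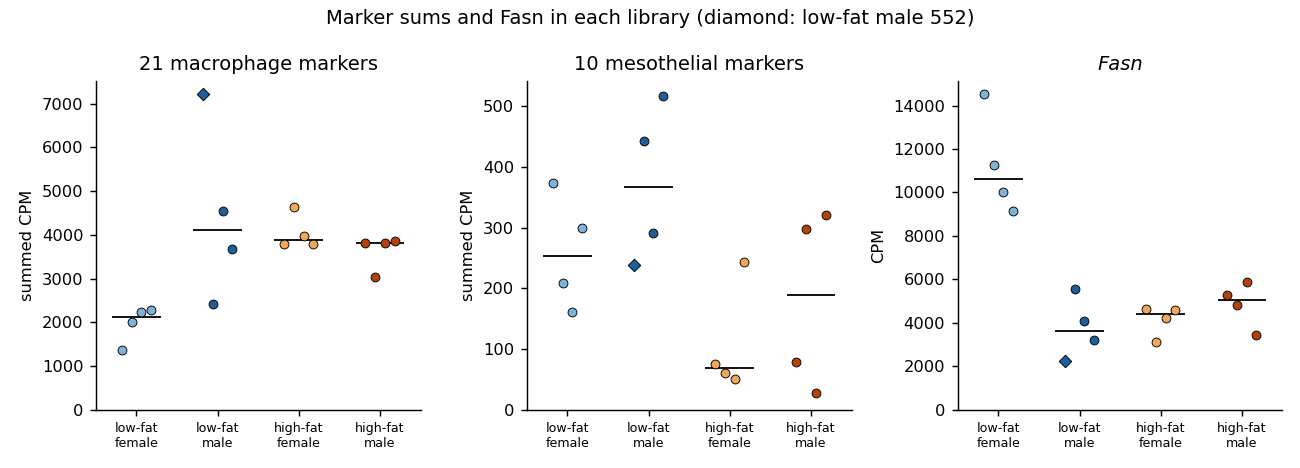
Summed CPM of 21 macrophage markers, summed CPM of 10 mesothelial markers and CPM of Fasn in each library by diet and sex (4 points each, bar the median, diamond low-fat male 552, axes from 0). Low-fat females have the lowest macrophage sums and the highest Fasn, and the mesothelial sums of 5 high-fat libraries lie below all low-fat ones.

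In females alone 1784 genes rose (13% of those tested) and 1835 fell (13.4%), and in males alone 65 rose (0.474%) and 5 fell (0.0365%), or 122 and 67 without 552. Leaving out 1 library gave 16 to 189 genes in males. All 1289 genes called with both sexes had the same sign in each sex, a count that their choice from both sexes together partly sets. Of the 3619 genes called in females 2540 had the same sign in males, against 8311 of all 13715 genes. The difference between the sexes was itself tested: with 16 libraries the diet-by-sex test of limma called 0 genes, with 2405 at an unadjusted p under 0.05, so the unequal counts do not show that the sexes responded differently. Without 552 it called 7 genes, and without low-fat male 627 it called 1048. Among the genes of smallest p, chosen after their values were seen, were lipid synthesis genes in which low-fat females stood apart. Acly, ATP citrate lyase, had 1767 ± 308 CPM (SD, n = 4) in low-fat females, 559.9 ± 157 CPM in low-fat males, 706 ± 88.5 CPM in high-fat females and 652 ± 92.8 CPM in high-fat males, and its diet difference was lower in females by an interaction of -1.57 ± 0.26 (SE, adjusted p = 0.0553), or -1.44, adjusted p = 0.0606, without 552. Elovl6, a fatty acid elongase, was also highest in low-fat females, with 479 ± 159 CPM in low-fat females, 105 ± 49.01 CPM in low-fat males, 89.5 ± 5.82 CPM in high-fat females and 100.4 ± 17.5 CPM in high-fat males. Its interaction was -2.41 ± 0.42 (SE, adjusted p = 0.0592), or -2.10, adjusted p = 0.0385, without 552. Females differed from males in 353 genes on the high-fat and 60 on the low-fat diet. These counts ran from 166 to 718 and from 10 (without low-fat female 662) to 533 (without low-fat male 627) when 1 library was left out, so they give no order of the diets.

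**Figure D5:**
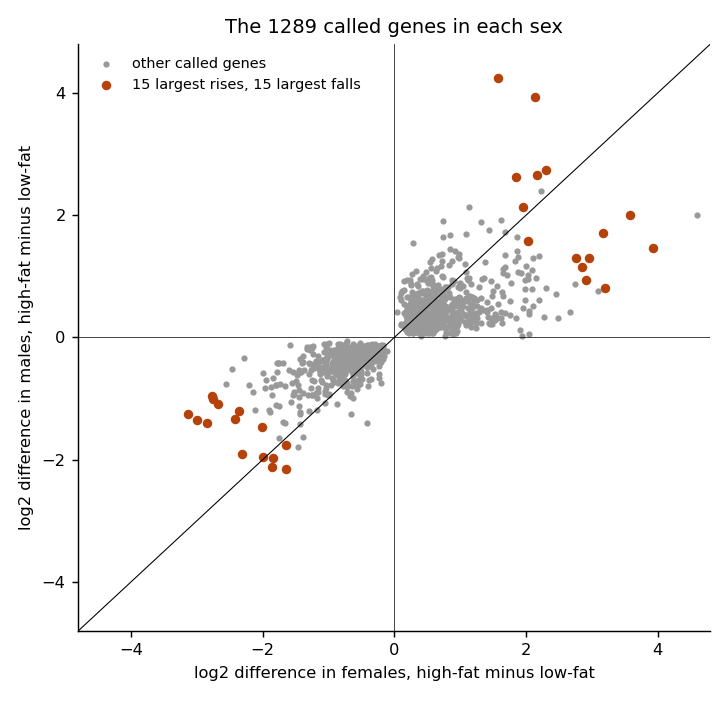
Log2 difference, high-fat minus low-fat, in females (horizontal) and in males (vertical) for the 1289 genes called with both sexes, with the 15 largest rises and 15 largest falls in orange and the line of equality. All points lie in the quadrants of equal sign, and genes such as Car3 lie nearer the horizontal axis, with -3.14 in females and -1.26 in males.

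At 20 weeks, in 16 other SM/J libraries, 1325 genes rose (9.66% of those tested) and 1365 fell (9.95%). These libraries lie in the same 2 separately scaled tables, so a factor of a gene and table would move both ages alike. Shared signs and calls may thus come in part from the tables, and the same-sign share over all genes is not given here. Of the 1289 genes called at 30 weeks, 1254 had the same sign at 20 weeks and 765 were called there in the same direction, which is 59.3% of the 30-week list and 28.4% of the 2690 genes of the 20-week list. Tfr2 differed by 3.69 at 20 weeks, Insig1 by 1.97, Car3 by -2.85 and Msln by -2.37, each called. All 10 mesothelial markers fell at 20 weeks, 13 of 16 cholesterol genes rose, and 0 of 26 respiratory chain genes fell. The diet-by-age test of limma called 0 genes, with 869 at an unadjusted p under 0.05, so no gene's diet difference was shown to change between the ages. Otop1, a proton channel of brown fat, had the smallest p, chosen after it was seen: its level in low-fat mice was 7.57 ± 5.89 CPM (SD, n = 8) at 20 and 28.8 ± 22.2 CPM at 30 weeks, with an interaction of -1.85 ± 0.36 (SE, adjusted p = 0.233).

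In LG/J mice of the same age 35 of 13806 genes were called (0.254%). Of the 1251 genes of the SM/J list that were measured in LG/J, 1014 had the same sign. The same-sign share over all genes is not given here. Of the 1251 genes, 20 were called in the same direction, which is 57.1% of the LG/J list and 1.6% of the SM/J genes measured there. The diet-by-strain test called 61 genes (0.456% of 13383), in which a factor of a gene and table does not cancel. The diet difference was higher in SM/J for 47 and lower for 14, against 139 and 127 without SM/J low-fat male 552 and 114 and 10 with plain CPM. Podnl1 averaged 14.6 ± 4.91 and 2.49 ± 0.745 CPM (SD, n = 8) on the high-fat and low-fat diets in SM/J and 2.93 ± 0.755 and 4.19 ± 1.89 CPM in LG/J, an interaction of 2.84 ± 0.29 (SE, adjusted p = 3.67e-06), or 2.80, adjusted p = 1.09e-05, without 552. Mgl2 averaged 1.57 ± 0.497 and 8.82 ± 4.90 CPM in SM/J and 32.4 ± 11.4 and 40.2 ± 12.7 CPM in LG/J, an interaction of -1.78 ± 0.27 (SE, adjusted p = 0.00113), or -1.96, adjusted p = 1.09e-05, without 552. Kcnj15, a potassium channel, averaged 68.9 ± 12.8 and 27.8 ± 10.6 CPM in SM/J against 51.6 ± 30.7 and 77.2 ± 39.3 CPM in LG/J (2.08 ± 0.28 SE, adjusted p = 0.000274).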

How the data were processed

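RNA from 16 SM/J white fat libraries was compared between diets, with 16 SM/J libraries of 20 weeks and 16 LG/J libraries of 30 weeks beside them. Reads were aligned with STAR 2.6.0c to mm10 and handled with edgeR, per the submitters' processing notes, and how the counts were made per gene is not given in the sources used here. The deposited values are a normalised count signal per gene, which the authors scaled and filtered in a separate table for each strain, diet and tissue. They are fractional and whole reads were not recovered, so no count test was run. The 2 white fat SM/J tables shared 13715 genes, and 270 and 252 genes of only the high-fat or only the low-fat table were left out, as were the brown fat tables. The shared genes were rescaled to CPM (per 1000000) by the trimmed mean of M values (30% and 5% trimmed), and log2(CPM + 0.25) was tested with limma 3.58.1 (R 4.3.3), two-sided, trended and with sex as covariate. Tests across separately normalised tables carry the limit stated in the report. Interactions used the means of strain, diet, age and sex groups. The number of mice limits the precision, and p-values set each difference against the spread between these libraries.

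Genes named are the 15 largest rises and falls with a mean of at least 5 CPM, an adjusted p under 0.05, the same sign in both sexes and no predicted, clone, RIKEN, ribosomal or pseudogene name, up to 5 per direction for interactions, the 4 members of smallest p of each of 40 lists (658 entries), and 18 genes always followed. Some other called members of a list are also named, a choice made with their values known. The members and lists were chosen with earlier results of these data known. Symbols and gene positions are from GENCODE M21. Genes of the X, Y and mitochondrial chromosomes are not analysed here, and some other genes are not reported here. Short motifs were searched in RefSeq promoter windows, and a longer PPAR/RXR motif that was planned is not reported here. The code was tested on simulated data. Alternatives were RLE scaling, plain CPM, other pseudocounts and filters, the deposited values without rescaling, no sex covariate, 1 fit to 32 libraries, robust and weighted fits, each sex alone and leaving out each library.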

Additional observations from a re-analysis of the deposited data

Results flagged for a closer look

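For 16 of 298 combinations of a gene and a diet group of 8 libraries, 1 library lay far from the other 7 in log2 CPM by Dixon's ratio, which chance gives in about 1 of 20 groups. The library of low-fat male 552 did so for Car3 (2806 CPM), Adipoq (1025 CPM), Pck1 (649 CPM), Plin4 (2163 CPM), Vegfa (57.7 CPM), Jun (77.5 CPM), Jund (98.8 CPM) and Acp5 (111 CPM). The library of low-fat female 489 did so for Ppp1r3a (0.499 CPM) and Cd86 (5.32 CPM). The library of high-fat female 646 did so for Lox (254 CPM) and Cry1 (20.4 CPM). The library of low-fat male 631 did so for Krt19 (153 CPM). The library of low-fat female 661 did so for Pkhd1l1 (41.9 CPM). The library of high-fat male 700 did so for Irs1 (26.2 CPM). The library of high-fat male 655 did so for Esr1 (81.2 CPM).

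The diet difference of 9 named genes differed between SM/J and LG/J by the interaction term of limma (Benjamini-Hochberg adjusted p under 0.05). In this test a factor of a gene and table does not cancel, so strain and table cannot be told apart. The SM/J difference was higher by the log2 amounts given for Podnl1 (2.84), Kcnj15 (2.08), Slc15a2 (1.89), Aldh1a7 (1.64) and Vxn (1.57), and lower for Mgl2 (-1.78), Fads1 (-0.89), Fdft1 (-0.74) and Acot7 (-0.54). Fads1, a fatty acid desaturase, and Fdft1 belong to lipid synthesis.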

How the results depend on the processing

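No paired analysis was possible because the high-fat and low-fat mice share no replicate numbers. The count of 1289 was 939 to 1814 under the other scalings, pseudocounts, filter, covariate and pooled fits. It was 4020 with library quality weights, 3619 in females alone and 70 in males alone. Of the called genes 54.4% rose, against 65.7% (of 1374) with the deposited values not rescaled. Leaving out 1 library gave 616 to 3792: 616, 692 and 832 without high-fat females 740, 729 and 786, 829 without high-fat male 700, 721 and 817 without low-fat females 490 and 489, 692 without low-fat male 627 and 3792 without low-fat male 552. The same step gave 2214 to 3427 genes in females, where 2321 were called without high-fat female 740, 16 (without high-fat male 653) to 189 (without low-fat male 552) in males, 166 to 718 (without high-fat male 700) for sex on the high-fat and 10 to 533 (without low-fat male 627) on the low-fat diet, 1939 to 3418 at 20 weeks and 9 to 145 (without high-fat male 537) in LG/J, where 13 of 16 such fits moved the count by over 1.5 times. Diet by sex gave 0 to 1048 genes (8, 7, 2 and 1 without low-fat female 489, male 552, female 661 and male 630), 2 with RLE scaling and 3 with a pseudocount of 1 CPM. Diet by age gave 0 to 1. Diet by strain gave 37 to 266 (266 without SM/J low-fat male 552, 159 without LG/J low-fat male 482 and 109 without SM/J low-fat male 631, with 9 of 32 fits moved by over 1.5 times) and 124 with plain CPM. Of 149 named genes 101 were called, 67 of them in every fit that left out 1 library and 84 in every other alternative run with both sexes, and none of the 101 changed sign outside the fits to 1 sex. Genes that were not called and changed sign were Mest (0.34), Ucp1 (0.90), Fasn (0.40), Itgax (-0.53), Trem2 (-0.16), Elovl6 (0.0417) and Ccl9 (-0.16) in males alone, Scd1 (-0.31) and Pparg (-0.12) in females alone, and Pparg with quality weights (-0.10) and without 552 (-0.11, against 0.0016 to 0.096 when 1 other library was left out). The cause was not tested.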

Other observations

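Further lists gave few calls with all 16 libraries. Of 12 hypoxia response genes Hif1a rose (0.56), while Pfkfb3, an activator of glycolysis, and Vegfa fell (-0.94 and -0.72). Fosl2 and Jun rose among 15 immediate early genes (0.41 and 0.38). Of 16 genes of the unfolded protein response the chaperone partner Dnajb9 rose (0.35). Bst2, tetherin, fell among 18 interferon genes (-0.43), and none of 15 clock genes was called, Arntl differing by 0.81 (adjusted p = 0.0538). Ppargc1b and Kcnk3 fell among 15 thermogenic genes (-0.71 and -0.54). Without low-fat male 552, 2 hypoxia, 6 immediate early and 5 unfolded protein response genes rose, 6 thermogenic genes fell, and of the clock genes 3 rose and 4 fell. Over all genes 14.3% rose and 13.3% fell without that library.

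Markers of the vessel wall and nerve also gave single calls. Emcn, an endothelial sialomucin, rose (0.37) among 14 endothelial markers, and Mbp, a myelin protein, fell (-0.26) among 5 nerve markers. Krt7, an epithelial keratin, and Star, the cholesterol carrier of steroid synthesis, fell (-1.61 and -0.53). Without 552, 2 endothelial and 2 nerve markers fell, where 13.3% of all genes did. The 3 haemoglobin genes summed to 141 to 2469 CPM on the high-fat and 78.7 to 461 CPM on the low-fat diet and were not called.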
